A study of Homo sapiens with 9 samples.

Results

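NF-kB is a family of dimeric transcription factors, and the genes described here encode its 5 subunits and 5 of the inhibitors that its own activity induces. They were chosen by symbol: the subunit genes NFKB1, NFKB2, REL, RELA and RELB, and the inhibitor genes NFKBIA, NFKBIE, NFKBIZ, TNFAIP3 and BIRC3. All 10 were among the 19356 genes of the deposited table, and all 10 passed a filter on low values that kept 16457 genes. The cells were LN229, an established line from a human glioblastoma, kept in DMEM with 5% FBS, and their polyadenylated RNA was sequenced. There were 3 libraries of wild-type cells (WT), 3 of the CRISPR ARNT2 knockout line B3 and 3 of the ARNT2 knockout line C4. ARNT2 encodes a transcription factor of the bHLH-PAS family, and the study asked about its part in proliferation and differentiation. No cytokine or other stimulus is given for any group. The labels do not say whether B3 and C4 are single clones, so an effect of the knockout and one of the line cannot be told apart. Nor do they name separate cultures as the source of the libraries of a group, so the p-values reflect the spread of these libraries alone, which may be technical.

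In resting cells most NF-kB dimers are held in the cytoplasm by IkB proteins. Signals from receptors for tumour necrosis factor, interleukin 1 or microbial products lead the IkB kinase complex to mark IkB for destruction, and the freed dimers enter the nucleus. There they switch on inflammatory and survival genes and also genes for their own subunits and inhibitors, which closes a negative feedback loop. In glioblastoma the pathway is known for its links with inflammatory and mesenchymal expression programmes.

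Values are log2 expression values scaled between libraries by the authors, and a difference is a log2 fold change ± SE from limma with 3 libraries per group. Library medians lay between 10.62 and 10.65, and read depth is unknown. The targeted gene ARNT2 had a mean log2 value of 13.57 ± 0.02 in WT, 11.89 ± 0.02 in B3 and 12.14 ± 0.09 in C4 (SD, n = 3 each). All 8 glioma and astrocyte markers examined passed the filter, although GFAP was weak, at 6.65 in WT replicate 1. Of 5 immune markers measured, PTPRC and CD3E were under the filter, and the log2 of the summed level of the 5 stayed between 6.77 and 6.82 in all 9 libraries. The log2 of the summed level of 3 endothelial markers was 9.19 to 9.28 in WT, 8.92 to 8.99 in B3 and 9.19 to 9.23 in C4, and that of 4 pericyte and fibroblast markers was 12.68 to 12.82, 12.33 to 12.35 and 12.58 to 12.69. In B3 each of these lists had 1 gene called higher and 2 lower. VWF fell by 0.41 ± 0.05 there while KDR rose by 0.12 ± 0.04. RGS5 fell by 1.22 ± 0.05 while DCN rose by 0.28 ± 0.05. The log2 of the summed level of 3 neuron markers was 11.58 to 11.65 in WT, 11.47 to 11.54 in B3 and 11.39 to 11.46 in C4, with no overlap and in the order in which 9 of the members stood. Of these 3, RBFOX3 was under the filter, SYP was not called, and SNAP25, a synaptic vesicle fusion gene, fell by 0.14 ± 0.03 in B3 (adjusted p = 0.00142) and fell by 0.23 ± 0.03 in C4 (adjusted p = 3.84e-06). The summed glioma and astrocyte markers were higher in B3, at 19.00 to 19.06 against 18.87 to 18.91 in WT and 18.87 to 18.93 in C4, and 3 epithelial markers overlapped between groups, at 8.06 to 8.74. VIM had by far the highest values of the 8 glioma and astrocyte markers, without correction for gene length. It rose by 0.19 ± 0.04 in B3 and fell by 0.12 ± 0.04 in C4. Of these 8, 4 were called higher in B3 and 1 lower, EGFR, at -0.53 ± 0.04. In C4 4 were called higher and 2 lower, EGFR and VIM. The part of these marker levels in the results was not tested. A change called below passed a Benjamini-Hochberg adjusted p of 0.05 over all 16457 genes. Of those genes, 47.9% were called in B3 against WT, 56.2% in C4 against WT and 56.4% in C4 against B3, so a call by itself was common. Higher genes made up 48.5% of the calls in B3 and 50.2% in C4, and 64.2% and 61.5% when all libraries were set to 1 total.

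The promoters of several of these genes hold the 10-letter NF-kB consensus motif, and they are shown because most of these genes fell together. RefSeq promoter windows of 300 bases (250 before and 50 from the transcription start, GRCh38.p14) matched 8 of the 10 symbols with 13 windows. NFKBIE and RELB had no entry. Capitals mark matches to the consensus on either strand. The NFKBIA, TNFAIP3 and NFKB2 windows carry it, and the RELA window does not.

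NFKBIA promoter, chr14:35404700-35404999, minus strand: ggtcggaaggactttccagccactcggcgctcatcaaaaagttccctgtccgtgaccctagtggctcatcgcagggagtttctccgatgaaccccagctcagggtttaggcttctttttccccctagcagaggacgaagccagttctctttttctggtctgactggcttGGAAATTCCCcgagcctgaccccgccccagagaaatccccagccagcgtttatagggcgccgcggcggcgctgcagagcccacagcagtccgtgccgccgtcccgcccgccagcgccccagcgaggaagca

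TNFAIP3 promoter, chr6:137867009-137867308, plus strand: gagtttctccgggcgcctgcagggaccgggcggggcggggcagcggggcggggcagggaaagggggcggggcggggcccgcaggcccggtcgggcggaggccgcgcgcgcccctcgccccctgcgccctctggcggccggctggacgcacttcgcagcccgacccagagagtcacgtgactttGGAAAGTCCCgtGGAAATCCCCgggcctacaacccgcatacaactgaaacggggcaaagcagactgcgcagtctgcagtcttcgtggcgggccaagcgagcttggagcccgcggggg

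NFKB2 promoter, chr10:102394328-102394627, plus strand: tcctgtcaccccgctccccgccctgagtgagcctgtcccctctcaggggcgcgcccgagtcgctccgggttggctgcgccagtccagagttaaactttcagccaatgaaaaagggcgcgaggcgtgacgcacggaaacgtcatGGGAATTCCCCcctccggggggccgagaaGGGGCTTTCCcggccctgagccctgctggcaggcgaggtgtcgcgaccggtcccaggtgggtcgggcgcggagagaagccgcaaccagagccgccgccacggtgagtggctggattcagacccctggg

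RELA promoter, chr11:65662867-65663166, minus strand: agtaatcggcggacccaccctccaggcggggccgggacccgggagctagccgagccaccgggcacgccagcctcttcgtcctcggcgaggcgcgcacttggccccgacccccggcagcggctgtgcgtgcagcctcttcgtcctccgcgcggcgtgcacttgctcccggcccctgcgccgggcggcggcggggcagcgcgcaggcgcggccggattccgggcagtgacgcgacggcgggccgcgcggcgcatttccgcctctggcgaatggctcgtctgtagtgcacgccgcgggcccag

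The motif was also found in 4 other members, and 30 bases around 1 match of each are given in the direction of transcription.

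NFKB1 site, chr4:102501300-102501329, plus strand: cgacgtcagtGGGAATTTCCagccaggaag

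REL site, chr2:60881517-60881546, plus strand: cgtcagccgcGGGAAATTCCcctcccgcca

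NFKBIZ site, chr3:101827757-101827786, plus strand: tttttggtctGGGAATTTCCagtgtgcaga

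BIRC3 site, chr11:102317275-102317304, plus strand: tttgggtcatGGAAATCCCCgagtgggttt

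The match began 81 bases before the start site in NFKBIA, 49 bases before it in NFKB1, 47 in REL, 223 in NFKBIZ and 199 in BIRC3, where a second match began at 135. TNFAIP3 had 2 matches, beginning 67 and 55 bases before the start. Overlapping matches in the NFKB2 window shown began 107 and 106 bases before its start, and a separate one began at 78. The letters GGGAATTTCC, read with the G run first, occurred in NFKB1, REL, NFKBIA and NFKBIZ. In all, 9 of the 13 windows, from 7 of 8 members, held the consensus, against 5.91% of all 35116 promoter windows. Counted by gene, 8.95% of the 11671 tested genes with a promoter entry held it. A looser pattern on either strand, GGG and CC with any 5 bases between, which includes every consensus match, was in 58.7% of all windows. It was in every window of the members, those of RELA included. The pattern GGGAA and CC with any 3 bases between, which shares some matches with the consensus, was in 6.90%. Among the members it was in windows of NFKB1, NFKB2, REL, NFKBIA and NFKBIZ. No window of RELA, TNFAIP3 or BIRC3 held it. A match of letters does not show that a factor binds there, and the loci known to carry such sites were among those chosen. The consensus was also added after these promoters had been seen, so its share among the members is a description only.

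Of the 5 subunit genes, 4 were lower in both knockout lines and RELA did not pass the test in either. NFKB2 and RELB, the precursor p100 and the partner subunit of the non-canonical pathway, were the lowest relative to WT in C4, and REL was the lowest in B3. The median difference of the subunit genes was -0.15 in B3 and -0.30 in C4, against 0.00 in both for all tested genes.

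NFKB2 encodes p100, which is processed to the subunit p52 and otherwise acts as an IkB-like inhibitor. Its log2 values were 13.72, 13.69 and 13.69 in the WT libraries, 13.54, 13.56 and 13.56 in B3 and 13.14, 13.12 and 13.13 in C4. The WT libraries were highest and the C4 libraries lowest, with no overlap between groups. NFKB2 fell by 0.15 ± 0.02 in B3 (adjusted p = 4.88e-06) and fell by 0.57 ± 0.02 in C4 (adjusted p = 3.21e-16), to 67.2% of the WT level in C4.

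RELB encodes a transactivating subunit that pairs mainly with p52 or p50. Its values were 12.30, 12.41 and 12.38 in WT, 12.19, 12.27 and 12.18 in B3 and 11.79, 11.84 and 11.84 in C4. The lowest WT library lay just above the highest B3 library, and the C4 libraries lay well below both. RELB fell by 0.15 ± 0.03 in B3 (adjusted p = 0.000369) and fell by 0.54 ± 0.03 in C4 (adjusted p = 1.07e-12).

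NFKB1 encodes p105, the precursor of the DNA-binding subunit p50. The 3 WT libraries were nearly identical at 13.94, 13.94 and 13.94, the B3 libraries had 13.84, 13.84 and 13.79, and the C4 libraries 13.62, 13.63 and 13.67. Again every WT library exceeded every B3 library and every B3 library exceeded every C4 library. NFKB1 fell by 0.12 ± 0.02 in B3 (adjusted p = 0.000203) and fell by 0.30 ± 0.02 in C4 (adjusted p = 8.88e-11), a smaller C4 change than that of NFKB2.

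REL encodes c-Rel, a transactivating subunit best known from lymphocytes. It had log2 values of 11.93, 11.99 and 11.95 in WT, 11.77, 11.72 and 11.72 in B3 and 11.69, 11.66 and 11.69 in C4. Both lines lay below WT, and they lay close to each other. REL fell by 0.22 ± 0.03 in B3 (adjusted p = 1.26e-06) and fell by 0.27 ± 0.03 in C4 (adjusted p = 2.39e-08). The difference between C4 and B3 was -0.06 ± 0.03 and did not pass the test (adjusted p = 0.108), with a 95% confidence interval from -0.12 to 0.00.

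RELA encodes p65, the main transactivating subunit of the canonical pathway. Its values were 14.20, 14.24 and 14.25 in WT, 14.20, 14.27 and 14.18 in B3 and 14.28, 14.25 and 14.23 in C4. The 3 groups overlapped. The difference from WT was -0.01 ± 0.03 in B3 (adjusted p = 0.744), with a 95% confidence interval from -0.06 to 0.04. In C4 it was 0.03 ± 0.03 (adjusted p = 0.413), with an interval from -0.03 to 0.08. In B3 the sign turned when all libraries were set to 1 total (0.02) and without B3 replicate 3 (0.01).

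All 5 inhibitor genes were lower in C4, and 3 of them were also called in B3. TNFAIP3 had the largest decrease of the 10 genes in C4, at 59.8% of the WT level. NFKBIA and BIRC3 were lower in C4 by amounts like those of RELB and NFKB2, while their differences in B3 did not pass the test. The median difference of the inhibitor genes was -0.17 in B3 and -0.53 in C4.

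NFKBIA encodes IkB-alpha, the inhibitor that is resynthesised first after NF-kB activation and takes dimers back out of the nucleus. Its log2 values were 13.33, 13.37 and 13.35 in WT, 13.29, 13.28 and 13.32 in B3 and 12.80, 12.83 and 12.82 in C4. B3 lay just under WT and C4 far below both. NFKBIA fell by 0.53 ± 0.02 in C4 (adjusted p = 3.19e-15). In B3 the difference was -0.05 ± 0.02 (adjusted p = 0.0775, and between 0.043 and 0.559 under the alternatives tried). It passed without WT replicate 1, at adjusted p = 0.043.

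TNFAIP3 encodes A20, a ubiquitin-editing enzyme that shuts off signalling upstream of the IkB kinase. Its values were 12.06, 12.01 and 12.05 in WT, 11.81, 11.84 and 11.87 in B3 and 11.34, 11.30 and 11.25 in C4. The groups were widely separated in the order WT, B3, C4. TNFAIP3 fell by 0.20 ± 0.03 in B3 (adjusted p = 9.31e-06) and fell by 0.74 ± 0.03 in C4 (adjusted p = 1.31e-15). In C4 only 0.966% of the tested genes had a lower difference, whereas in B3 9.28% did.

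BIRC3 encodes cIAP2, a ubiquitin ligase of the tumour necrosis factor receptor complex that protects cells from death and helps to restrain the non-canonical pathway. Its values were 10.72, 10.76 and 10.83 in WT, 10.69, 10.66 and 10.69 in B3 and 10.21, 10.27 and 10.21 in C4. The lowest WT library lay just above the highest B3 library, and the C4 libraries lay well below both groups. BIRC3 fell by 0.54 ± 0.04 in C4 (adjusted p = 2.29e-11). In B3 the difference was -0.09 ± 0.04 (adjusted p = 0.054, and between 0.0257 and 0.257 under the alternatives tried). That B3 value passed without a filter (0.0461), with a filter of 50 (0.0494), without an intensity trend (0.0299), with robust moderation (0.0477) and without WT replicate 1 (0.0257).

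NFKBIZ encodes IkB-zeta, an atypical nuclear IkB protein that acts as a cofactor at a subset of NF-kB targets rather than only as an inhibitor. Its values were 12.63, 12.61 and 12.56 in WT, 12.35, 12.41 and 12.40 in B3 and 12.15, 12.12 and 12.15 in C4. The groups did not overlap, and B3 lay between WT and C4. NFKBIZ fell by 0.21 ± 0.03 in B3 (adjusted p = 5.03e-07) and fell by 0.46 ± 0.03 in C4 (adjusted p = 7.37e-13).

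NFKBIE encodes IkB-epsilon, a slower feedback inhibitor than IkB-alpha. Its values were 12.89, 12.91 and 12.93 in WT, 12.74, 12.72 and 12.75 in B3 and 12.61, 12.65 and 12.61 in C4. It showed the smallest C4 change among the inhibitors, and the B3 and C4 means lay closer to each other than B3 lay to WT. NFKBIE fell by 0.17 ± 0.02 in B3 (adjusted p = 2.67e-06) and fell by 0.28 ± 0.02 in C4 (adjusted p = 6.39e-10).

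**Figure D1:**
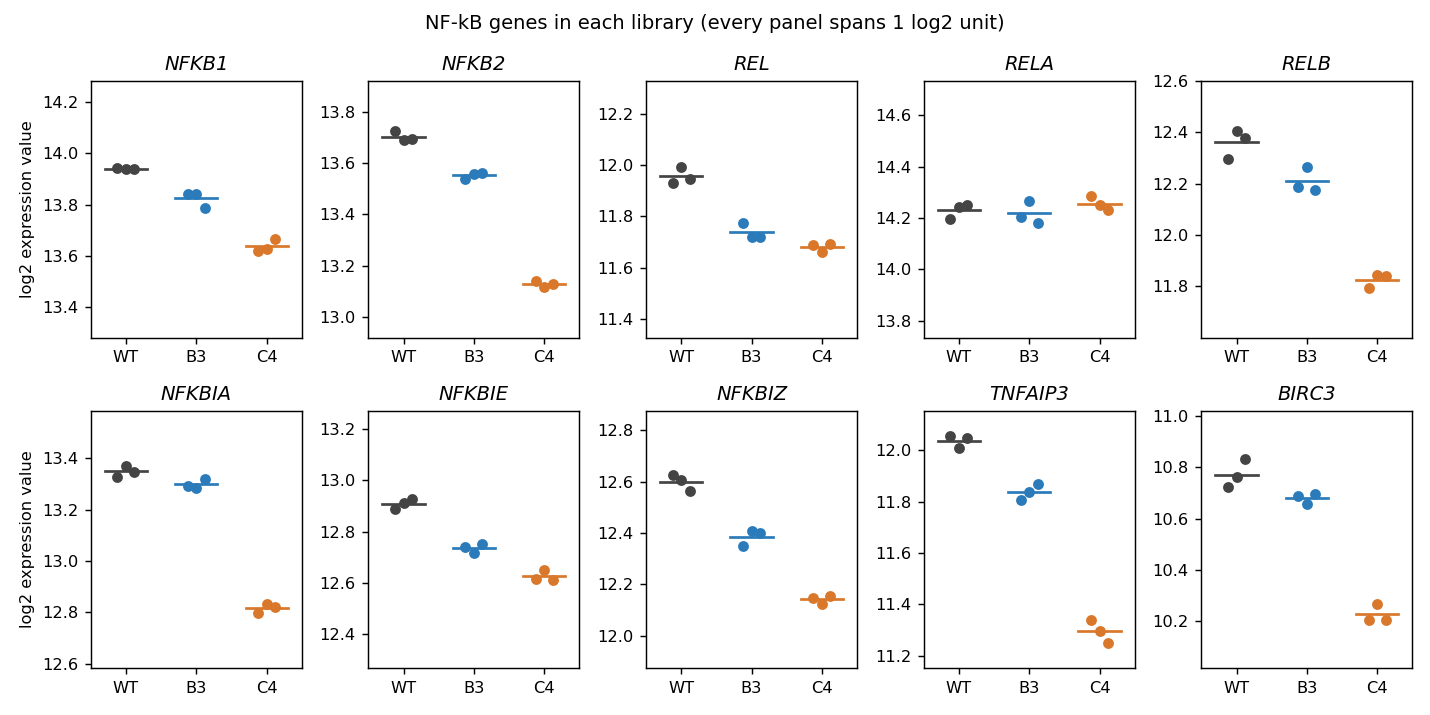
Log2 expression value (y axis, every panel spanning the same range) of the 10 NF-kB genes in the 3 WT, 3 B3 and 3 C4 libraries (x axis); points are libraries and bars are group means. In 9 panels all WT points lie above all B3 points and these above all C4 points, and in the RELA panel the groups overlap.

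Counted over the 10 genes, 7 were called lower in B3 and 0 higher, where 24.6% of all tested genes were called lower. In C4 9 were called lower and 0 higher, where 28.0% of tested genes were called lower. At an unadjusted limma p under 0.05, 0 of the 10 genes were higher in either line, and 9 were lower in each. The share of all tested genes at that unadjusted threshold is not given here, so this count has no background beside it. The 7 genes called in B3 were called lower in C4 as well, against 12.5% of tested genes that were called lower in both lines. B3 and C4 were compared with the same WT libraries, so these counts are not independent of each other. Without regard to a test, 9 of the 10 genes had all WT libraries above all B3 libraries and all B3 libraries above all C4 libraries, an order that 5.60% of tested genes showed. These shares describe genes that were chosen with results of these data known.

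**Figure D2:**
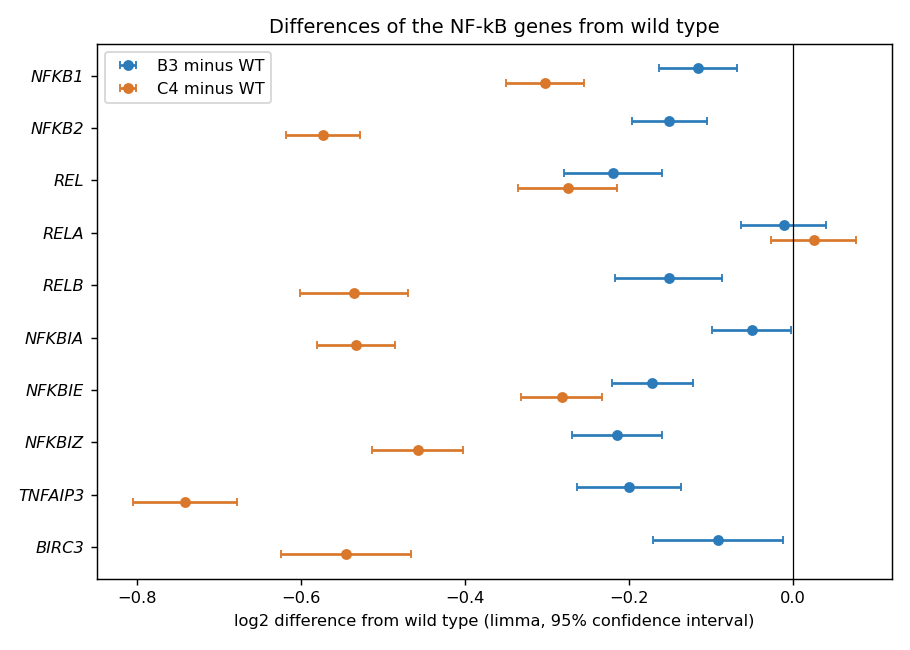
Log2 difference from wild type (x axis, limma estimate with its 95% confidence interval) of the 10 NF-kB genes (y axis) in B3 and in C4, from 3 libraries per group. The C4 points run from -0.74 for TNFAIP3 to 0.03 for RELA, and the B3 points from -0.22 for REL to -0.01 for RELA.

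C4 and B3 were then compared directly. Of the 10 genes, 8 were lower in C4 than in B3, where 27.8% of tested genes were called lower. TNFAIP3 differed most, by -0.54 ± 0.03 (adjusted p = 3.92e-13), then NFKBIA by -0.48 ± 0.02 (adjusted p = 1.92e-14), BIRC3 by -0.45 ± 0.04 (adjusted p = 4.95e-10), NFKB2 by -0.42 ± 0.02 (adjusted p = 8.9e-14) and RELB by -0.38 ± 0.03 (adjusted p = 3.55e-10). Smaller differences were called for NFKBIZ at -0.24 ± 0.03, NFKB1 at -0.19 ± 0.02 and NFKBIE at -0.11 ± 0.02. RELA was at 0.04 ± 0.03 and, like REL, was not called. Ranked by size, the members stood in another order in each line, though neighbours in that ranking differed by less than their SE in places. In B3 the lowest differences were those of REL, NFKBIZ and TNFAIP3, and in C4 those of TNFAIP3, NFKB2 and BIRC3.

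Because RELA did not pass the test in any comparison, its value in the same library served as a reference for the other members. On the log2 scale NFKBIA minus RELA was -0.88 ± 0.02 in WT, -0.92 ± 0.06 in B3 and -1.44 ± 0.04 in C4 (SD, n = 3 each). B3 overlapped WT in this ratio, at -0.91, -0.98 and -0.86 against -0.87, -0.87 and -0.90, and the C4 libraries lay apart at -1.49, -1.42 and -1.41. For TNFAIP3 minus RELA the values were -2.19 ± 0.05 in WT, -2.38 ± 0.06 in B3 and -2.96 ± 0.02 in C4 (SD, n = 3 each), with no overlap. A ratio of this kind shows that the 2 RNAs changed unequally, and says nothing of protein. RELA was picked for its small differences in these same data, so the ratios largely restate the differences given above.

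To rank the 10 genes by level, their values were taken per kilobase of summed exon length (GENCODE 29). In WT the log2 level per kilobase was highest for NFKBIA at 12.10, followed by RELA at 11.78, NFKBIE at 11.54, NFKB2 at 11.54, NFKB1 at 11.29, RELB at 10.76, NFKBIZ at 10.04, TNFAIP3 at 9.70, REL at 8.24 and BIRC3 at 7.86. NFKBIE and NFKB2, neighbours in that order, did not differ beyond their spread. In C4 the level per kilobase of RELA, at 11.80, was above that of NFKBIA, at 11.57, whereas WT and B3 had NFKBIA above RELA. The exon length counts all annotated exons, whichever are used in these cells, and was longest for REL, at 13170 bases.

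The genes are scattered over the genome, and their positions were examined because some stretches of chromosome held many lower genes in these lines, as given further on for upstream genes. NFKB1 (ENSG00000109320.11) lies on chromosome 4 from 102501329 to 102617302, NFKB2 (ENSG00000077150.18) on chromosome 10 from 102394110 to 102402529 and NFKBIA (ENSG00000100906.10) on chromosome 14 from 35401511 to 35404749, on GRCh38. TNFAIP3 (ENSG00000118503.14) lies on chromosome 6 from 137867188 to 137883312 and BIRC3 (ENSG00000023445.13) on chromosome 11 from 102317450 to 102339403. REL is on chromosome 2, RELA on chromosome 11, RELB on chromosome 19, NFKBIE on chromosome 6 and NFKBIZ on chromosome 3. Exons of TNFAIP3 overlap the antisense gene AL357060.1, and those of REL and RELA overlap the non-coding genes AC010733.2 and AP001362.2. It is not stated in the sources used here whether the counting used strand, so reads of these overlapping genes may not be told apart.

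The other tested genes that start within 2 Mb of each member had medians near 0. These median differences lay between -0.03 and 0.05 in B3 and between -0.05 and 0.04 in C4. TNFAIP3 was lower in C4 than all 18 of its neighbours, whose median was 0.01. The same held for NFKB1 with 12 neighbours, NFKB2 with 57, NFKBIA with 19, NFKBIZ with 17 and BIRC3 with 10. RELB was lower than all but 1 of its 88 neighbours, REL than all but 1 of 14 and NFKBIE than all but 2 of 49. RELA sat in the middle of its 131 neighbours, 61 of which were lower in C4. In B3 only REL was lower than all its neighbours. There 9 of 88 neighbours lay below RELB, 5 of 49 below NFKBIE and 3 of 57 below NFKB2. For NFKB1, NFKBIA and BIRC3 2 neighbours lay below the gene in B3, and for NFKBIZ and TNFAIP3 1 did. Below RELA were 40 of 131.

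**Figure D3:**
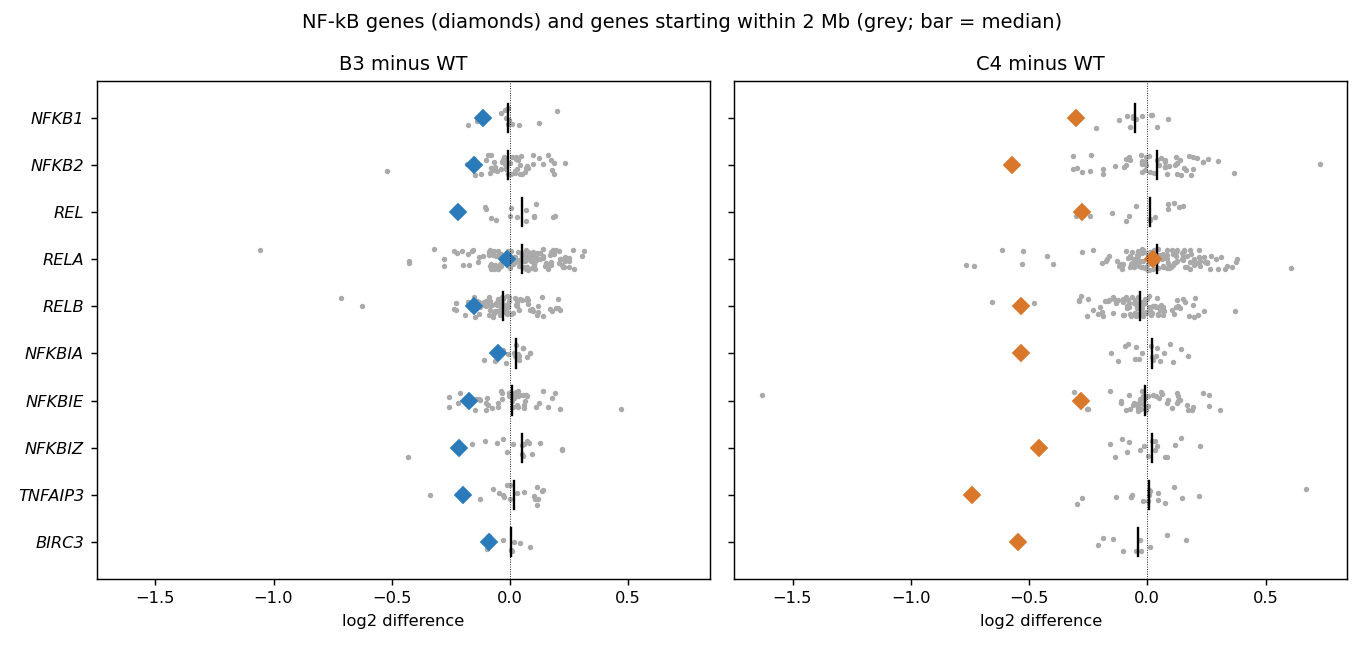
Log2 difference from wild type (x axis) in B3 (left) and C4 (right) of each NF-kB gene (diamond) and of the other tested genes that start within 2 Mb of it (grey points; bar, their median). The diamonds of C4 lie to the left of most neighbours except that of RELA, and the medians lie between -0.05 and 0.04.

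TNFAIP3, the gene with the largest change in C4, was compared with 14328 other genes by Pearson's correlation over the 9 libraries. The genes most like it were TMEM100 (r = 0.998), NFKB2 (r = 0.997), CXCL8 (r = 0.997), IER3 (r = 0.997) and EYA1 (r = 0.996). CXCL8, the interleukin 8 chemokine, differed by -0.47 ± 0.03 in B3 and -1.89 ± 0.03 in C4, and IER3, an early response gene that affects cell survival, by -0.19 ± 0.02 and -0.62 ± 0.02. TMEM100 differed by -0.34 ± 0.04 in B3 and -1.34 ± 0.04 in C4, and EYA1 by -0.24 ± 0.04 and -0.84 ± 0.04. TMEM100 and EYA1 are not in the list of NF-kB target genes used below. These correlations are descriptions over 9 points that fall into 3 groups, and 4.06% of the genes compared had r above 0.95. Among the other members r was 0.982 for BIRC3, 0.977 for NFKBIA, 0.975 for RELB, 0.966 for NFKB1, 0.966 for NFKBIZ, 0.916 for NFKBIE, 0.802 for REL and -0.392 for RELA.

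Genes that act upstream of NF-kB were called in both directions. Of 36 tested receptors, adaptors and kinases, 8 were higher and 11 lower in B3, and 10 higher and 13 lower in C4, with medians of -0.04 and -0.02. Over all tested genes, 23.2% were called higher and 24.6% lower in B3, and 28.2% and 28.0% in C4. In B3 the lowest were the receptor genes LTBR at -0.61 ± 0.03 (adjusted p = 6.57e-15) and TNFRSF1A at -0.41 ± 0.03 (adjusted p = 3.41e-11), the kinase gene MAP3K7, which encodes TAK1, at -0.55 ± 0.02 (adjusted p = 7.97e-15), and IKBKB, a catalytic subunit of the IkB kinase, at -0.30 ± 0.02 (adjusted p = 2.36e-10). Their surroundings were lower too. LTBR and TNFRSF1A lie on chromosome 12, and 49 of the 64 tested genes within 2 Mb of each were called lower in B3, with a median of -0.21. Near MAP3K7 on chromosome 6, 10 of 11 neighbours were lower, with a median of -0.50, and near IKBKB 16 of 19, with a median of -0.18. The part of these regional differences in the values of the 4 genes was not tested. In C4 TNFRSF1A (-0.03 ± 0.03) and IKBKB (-0.02 ± 0.02) did not pass the test, and LTBR differed by -0.08 ± 0.03 (adjusted p = 0.00856) and MAP3K7 by -0.13 ± 0.02 (adjusted p = 5.42e-05).

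In C4 the lowest genes of the same list were TRAF1 and IRAK2. TRAF1, an adaptor gene that is itself induced by NF-kB, fell by 1.04 ± 0.05 (adjusted p = 9.72e-15), with a neighbour median of -0.01, and in B3 it fell by 0.26 ± 0.05 (adjusted p = 0.000108). IRAK2, a kinase gene of interleukin 1 receptor signalling, fell by 0.59 ± 0.04 (adjusted p = 5.32e-12), but 26 of its 39 neighbours were lower in C4, with a median of -0.23, and the part of that in its value was not tested. TNFRSF12A, the receptor of the cytokine TWEAK, fell by 0.46 ± 0.04 (adjusted p = 1.69e-09). TAB3, an adaptor gene of TAK1, rose by 0.73 ± 0.03 in C4 (adjusted p = 3.83e-16) and rose by 0.21 ± 0.03 in B3 (adjusted p = 1.99e-06).

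Other inhibitors of the pathway and IkB-like genes outside the 10 members gave 2 higher and 4 lower of 14 in B3, and 3 higher and 6 lower in C4, with medians of 0.01 and -0.05. The shares over all tested genes were 23.2% higher and 24.6% lower in B3, and 28.2% and 28.0% in C4. With all libraries set to 1 total, 2 rather than 6 were lower in C4. ZC3H12A, whose product regnase-1 degrades inflammatory RNAs and is induced by NF-kB, fell by 0.58 ± 0.03 in C4 (adjusted p = 1.25e-12) and fell by 0.11 ± 0.03 in B3 (adjusted p = 0.0122). NLRC5, a regulator of MHC class I genes, rose by 0.39 ± 0.05 in C4 (adjusted p = 2.18e-07). NFKBIL1 and NFKBID, an atypical nuclear IkB gene, differed by -0.15 ± 0.04 (adjusted p = 0.00221) and -0.14 ± 0.05 (adjusted p = 0.0151) in C4. In B3 PDLIM2, which promotes the removal of nuclear p65, fell by 0.34 ± 0.03 (adjusted p = 5.66e-09) beside a neighbour median of -0.17, TAX1BP1, an adaptor of A20, fell by 0.23 ± 0.02 (adjusted p = 4.02e-08), and BCL3, an IkB-like coactivator of p50 and p52, fell by 0.11 ± 0.03 (adjusted p = 0.00132).

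Target genes of NF-kB were mostly lower in both lines. The list held 42 symbols and was chosen with earlier results of these data known. The deposited table held 40 of them, and 34 passed the filter. Of the 34 tested, 3 were higher and 24 lower in B3, and 4 higher and 28 lower in C4, with medians of -0.20 and -0.40. Over all tested genes, 23.2% were called higher and 24.6% lower in B3, and 28.2% and 28.0% in C4. Those called higher were BCL2A1, BCL2L1 and MMP9 in B3, and BCL2L1, IRF1, CCL5 and SAA2 in C4. The largest of these increases was 0.20 in B3 and 0.13 in C4. The lipocalin gene LCN2, whose product withholds iron from bacteria, differed by -2.12 ± 0.06 in B3 (adjusted p = 9.95e-19) and -3.02 ± 0.06 in C4 (adjusted p = 6.51e-22). The complement gene C3 differed by -1.31 ± 0.03 in B3 (adjusted p = 6.38e-21) and -1.27 ± 0.03 in C4 (adjusted p = 6.26e-21). The chemokine gene CXCL8, already given above, passed at adjusted p = 2.12e-11 in B3 and 8.35e-23 in C4. IL1A and IL1B, cytokine genes whose products also activate NF-kB, differed by -0.69 ± 0.04 and -0.83 ± 0.05 in B3 and by -1.66 ± 0.04 and -1.16 ± 0.05 in C4, all past the threshold. Of their 26 neighbours on chromosome 2, 20 were lower in C4, with a median of -0.36, whose part in the C4 values was not tested, and the same neighbours had a median of -0.01 in B3. Promoter windows were listed for 23 of the tested targets, and 9 of these held the consensus, as did 3 of 32 upstream genes and 5 of 12 other inhibitors. Among 1038 tested genes outside the members that held the consensus, 29.5% were called lower in B3 and 32.0% in C4, against 24.5% and 27.9% of the 10625 without it. Called higher were 21.9% in B3 and 27.2% in C4 of the genes that held it, against 25.2% and 30.7% of those without it. The median difference of the genes that held it was -0.01 in both lines, and that of the others was 0.0039 in B3 and 0.0055 in C4. The genes that held it included the 9 targets, and the difference of these shares was not tested.

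**Figure D4:**
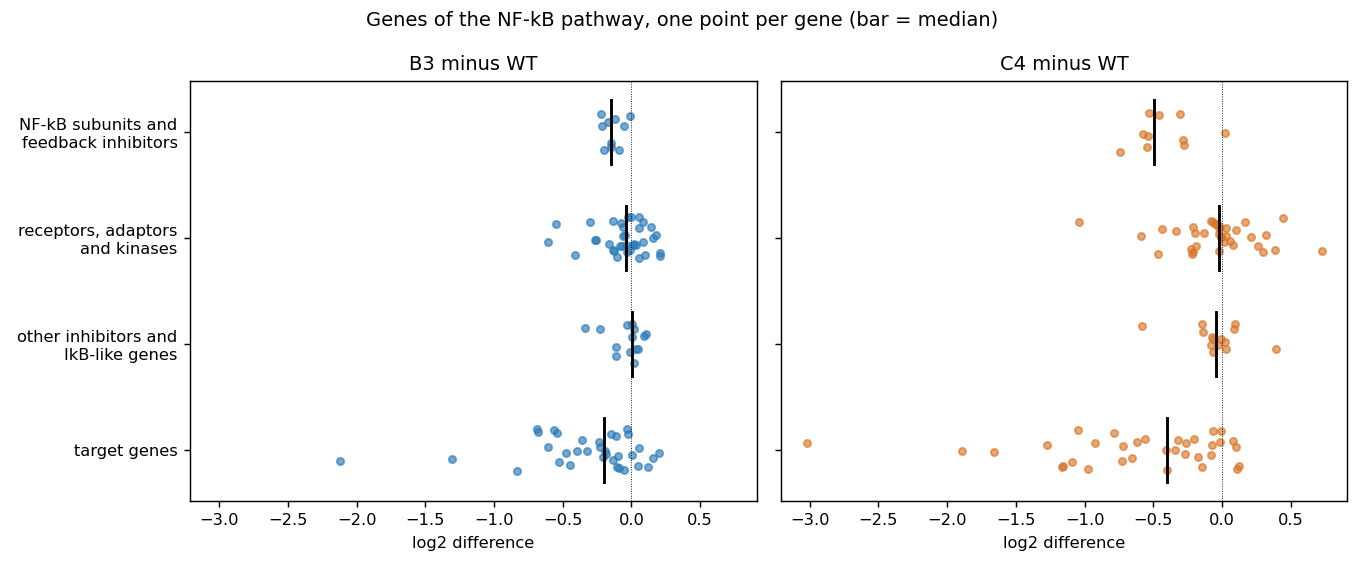
Log2 difference from wild type (x axis) in B3 (left) and C4 (right) of the tested genes in 4 groups of the NF-kB pathway; each point is a gene and bars are medians. The target genes and the 10 members lie mostly below 0, with medians of -0.40 and -0.50 in C4, while the upstream genes and the other inhibitors lie on both sides of 0.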

How the data were processed

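RNA of LN229 cells was measured in 9 libraries of 3 groups (WT, B3 and C4), mapped to columns by their labels. The deposited values are log2 values, which the authors scaled between libraries, and they look like the output of a regularized-log transform, which understates changes of weakly expressed genes; no label names the transform. STAR 2.7.3a, Subread 1.6.3, DESeq2 and build hg38 are listed in the submitters' processing notes, with no role or order. The counting annotation is not given in the sources used here. Depth is unknown.

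Genes whose antilogs averaged 10 or more entered 1 limma fit of all libraries (limma 3.58.1, R 4.3.3), with a coefficient per group, an intensity trend and two-sided tests. P-values were Benjamini-Hochberg adjusted over all 16457 genes, and calls were made at 0.05. The fit was tested on simulated data. Positions and exon lengths came from GENCODE 29 (GRCh38), which held 92.6% of the tested symbols, and promoters from RefSeq (GRCh38.p14). The members, pathway lists and motifs were chosen with earlier results of these data known, and the consensus motif was added after the promoters were seen. Named were all members, up to 4 called genes per list and line with the largest change and a mean antilog of at least 50, and the 5 genes most like TNFAIP3. Alternatives covered pseudocounts, filters, scalings, moderation, the samples fitted, a replicate block and leaving out each library.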

Additional observations from a re-analysis of the deposited data

Results flagged for a closer look

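The change from WT differed between the knockout lines for 8 of the 10 genes, by the direct test of C4 against B3. Of all tested genes, 56.4% were called in that comparison and 27.8% were called lower in C4, so such a difference was common. C4 minus B3 was -0.54 for TNFAIP3, -0.48 for NFKBIA, -0.45 for BIRC3, -0.42 for NFKB2, -0.38 for RELB, -0.24 for NFKBIZ, -0.19 for NFKB1 and -0.11 for NFKBIE, all lower in C4. Both lines carry the same label of genotype, and ARNT2 RNA was higher in C4 than in B3 by 0.25 ± 0.03. Which feature of the lines goes with these differences was not tested.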

How the results depend on the processing

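The 10 genes were tested under 19 alternatives in 3 comparisons, which gave 570 values, of which 562 kept their direction and their side of the threshold, 6 newly passed it and 2 turned sign. Both sign changes were those of RELA in B3, at 0.022 with libraries set to 1 total and at 0.0068 without B3 replicate 3, where the value as reported was -0.011. Leaving out each library in turn gave -0.036 to 0.0068 for it. The 6 newly called values were those of BIRC3 and NFKBIA in B3. The number of members called lower stayed between 7 and 9 for B3, at 9 for C4 and at 8 for C4 against B3, and the highest B3 count came without WT replicate 1. The labels do not say whether the replicate numbers pair the libraries. Same-numbered libraries of different groups deviated from their group means with correlations of -0.229 to 0.016. Values for differently numbered libraries are not given beside them, so these correlations cannot decide whether libraries were paired. With a replicate block, 7 members were called for B3, 9 for C4 and 8 for C4 against B3, and 7504, 8961 and 9017 genes were called in all. Scaling to the same total moved the median of all tested genes by at most 0.03. Depth could not be assessed from scaled log2 values.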
